A study of Mus musculus with 9 samples.

Results

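LPS and IL-4 are used to skew microglia in opposite directions, and the genes described here are those that stood away from resting microglia with both of them. The genes were chosen by their measured differences from PBS: named genes were taken where the LPS mean and the IL-4 mean each differed from the PBS mean by 0.8 or more on the log2 scale, which left 139 of 18786 named genes in a table of 21212 rows. They fell into 4 classes: 55 genes lay above PBS with both stimuli, 38 lay below PBS with both, 41 lay above with LPS and below with IL-4, and 5 lay below with LPS and above with IL-4. Another 14 rows past the limit had no single gene symbol (3, 2, 7 and 2 in these classes) and are not described. Because the differences from PBS chose the genes, they are given as a description with no test, and both differences share the same 3 PBS arrays.

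The cells were primary microglia from the brains of wild-type CD-1 pups at P0 to P1, with litters pooled, so that no array stands for 1 animal. All cultures were grown for 5 to 7 days, per the labels, with 10 ng/ml each of M-CSF and GM-CSF, 2 growth factors that sustain macrophages, and were put in serum-free medium overnight. They then received PBS (resting), 100 ng/ml LPS (M1-skewing) or 20 ng/ml IL-4 (M2a-skewing) for 4 h, and 3 Affymetrix exon arrays were run for each of the 3 conditions. Values are deposited log2 expression values, and the values of an array series are given in the order of replicates 1, 2 and 3. The labels do not say that the replicates are separate preparations, so p-values measure only how far these arrays spread, and that spread may be technical.

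The label of the cells was checked against marker lists. The median of 15 measured microglia and macrophage genes lay between 10.52 and 11.13 on every array, and that of 13 astrocyte genes between 10.28 and 10.94. The median of 12 fibroblast and meningeal genes lay between 8.42 and 9.24, and that of 11 endothelial and mural genes between 6.89 and 7.79. Neutrophil and lymphocyte genes had medians between 4.31 and 5.44. Transcripts of the astrocyte and the fibroblast and meningeal lists were thus present beside those of microglia. In bulk RNA fewer cells of a type and less RNA per cell cannot be told apart. Replicate 3 of PBS and of LPS stood apart from replicates 1 and 2. The median of 43 motile cilia genes was 6.97, 7.12 and 8.93 on the PBS arrays, 6.92, 6.87 and 8.14 on the LPS arrays and 8.24, 8.44 and 8.40 on the IL-4 arrays. The median of 10 genes of the oligodendrocyte lineage was 7.38, 7.30 and 8.80 with PBS, 7.03, 7.10 and 8.56 with LPS and 7.49, 7.74 and 7.65 with IL-4. None of the 139 genes belongs to any of the 9 marker lists, which also cover neurons. These lists hold only 9 to 43 measured genes, so absence from them does not tell which cells a transcript came from.

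LPS, a component of the outer membrane of Gram-negative bacteria, is sensed by Toll-like receptor 4, which signals through adaptors to NF-κB, AP-1 and interferon regulatory factors. Interferon made in response acts back on the cells through its receptor and induces antiviral genes, many of which carry the interferon-stimulated response element in their promoters. IL-4 binds its receptor on macrophages and microglia and activates STAT6, which drives genes of alternative activation. Both routes also switch on inhibitors that limit signaling, such as the SOCS family.

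**Figure D1:**
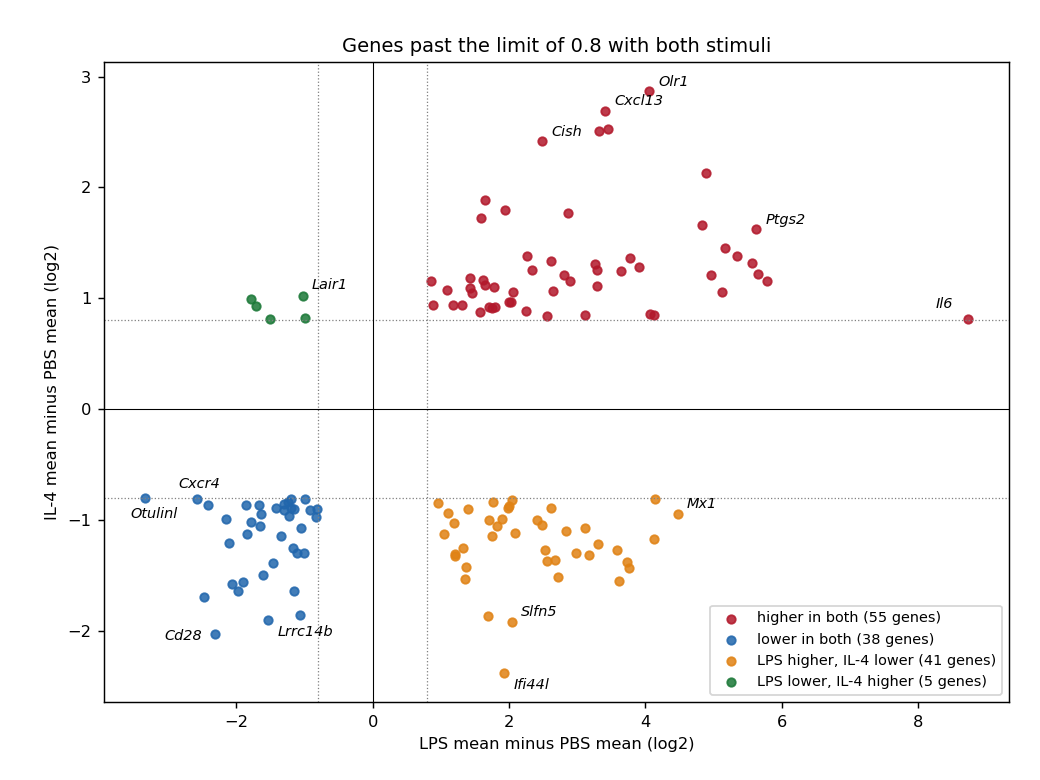
Difference of the LPS mean from the PBS mean (horizontal, log2) and of the IL-4 mean from the PBS mean (vertical, log2) for the 139 genes, with dotted lines at the limit of 0.8 and colors for the 4 classes. The genes above PBS with both stimuli reach 8.73 with LPS (Il6) and 2.87 with IL-4 (Olr1), and most of them lie further from PBS with LPS than with IL-4.

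Passing the limit was common with LPS and uncommon with IL-4. Of all rows, 5.51% lay 0.8 or more above PBS with LPS and 4.51% lay as far below it, whereas 0.768% lay above and 0.646% below with IL-4. The median differences of the 55 genes above PBS with both were 2.65 with LPS and 1.17 with IL-4, and those of the 38 genes below PBS were −1.44 and −1.01. In the 41 genes with opposed differences the medians were 2.05 with LPS and −1.14 with IL-4, and in the 5 genes of the reverse kind −1.50 and 0.93. The medians of all rows were 0.01 and −0.02. LPS gave the larger of the 2 differences in 51 of 55, 29 of 38, 34 of 41 and 5 of 5 genes.

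The chemokine genes stood out among the genes above PBS with both stimuli. Chemokines are secreted proteins that guide the movement of leukocytes, and 10 of the 29 measured ones were in this class and none in the others. Of all 18786 named genes, 55 were in this class. The gene lists were chosen with earlier results of these data known, so the counts per list are a description. The list as a whole had median differences of 2.76 with LPS and 0.64 with IL-4. Ccl7, a monocyte attractant, was at 7.72, 7.64 and 6.73 with PBS, 12.28, 12.26 and 12.21 with LPS and 9.26, 9.73 and 9.51 with IL-4. Its neighbor Ccl12 was at 5.67, 5.79 and 5.99 with PBS, 10.66, 10.64 and 10.63 with LPS and 7.38, 7.52 and 7.52 with IL-4. Ccl8, which attracts monocytes and T cells, was at 5.82, 6.42 and 6.36 with PBS, 9.55, 9.58 and 8.08 with LPS and 7.87, 7.86 and 8.19 with IL-4. For Ccl7 and Ccl12 the 3 conditions did not overlap and IL-4 lay between PBS and LPS, whereas LPS replicate 3 of Ccl8 lay within the range of the IL-4 arrays. Ccl2, the best known attractant of monocytes, differed from PBS by 3.77 with LPS and 1.36 with IL-4.

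The other chemokine genes act on neutrophils, B cells and activated T cells. Cxcl13, which attracts B cells, was at 5.64, 5.81 and 8.36 with PBS, 9.64, 9.22 and 11.18 with LPS and 9.11, 9.26 and 9.53 with IL-4. PBS replicate 3 was the highest PBS array and LPS replicate 3 the highest LPS array, and the PBS arrays still lay below all stimulated ones. The neutrophil attractants Cxcl2, Cxcl3 and Cxcl5 differed from PBS by 5.56, 5.17 and 2.06 with LPS and by 1.32, 1.46 and 1.05 with IL-4. Cxcl2 and Cxcl3 are similar in sequence, so probes may not separate them fully. Cxcl10 and Cxcl11, ligands of CXCR3 that are induced by interferon, were 2 of the 77 measured interferon-stimulated genes and the only ones of that list above PBS with both. Cxcl10 was at 9.40, 9.56 and 9.11 with PBS, 12.96, 12.97 and 13.06 with LPS and 10.63, 10.59 and 10.59 with IL-4, so that its IL-4 arrays lay on the other side of PBS from those of most interferon-stimulated genes in these classes.

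The chemokine genes lie close together in the genome, and 9 of the 55 genes had another gene of the class starting within 200 kb in the RefSeq annotation. Ccl2, Ccl7, Ccl12 and Ccl8 formed a group of 4 on chromosome 11, and Cxcl5, Cxcl3 and Cxcl2 a group of 3 and Cxcl10 and Cxcl11 a group of 2 on chromosome 5. No such groups were found among the genes below PBS with both. The same count was not made for all named genes, so these numbers are a description.

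Upstream sequences of a few genes are shown because letters of known response elements lie in them. Promoters were taken from RefSeq (GRCm38.p6), in which 42 of the 55 genes above PBS with both, 27 of the 38 below, 32 of the 41 with LPS above and IL-4 below and all 5 of the reverse kind had an entry, as had 15061 of 18786 named genes. The 250 bases before each start were searched on both strands for GGGNNTTTCC, a form of the NF-κB element. It was found in 4 of 42 genes above PBS with both (9.52%), in none of the other classes and in 1.63% of all genes. The genes were Cxcl2, Cxcl3, Il6 and Steap4. Cxcl2 and Cxcl3 are neighbors of similar sequence and are not independent, and Il6 lay just inside the limit with IL-4 (0.81). The share in this class thus rests on very few separate genes. The stretches around the match nearest the start are printed 5′ to 3′ on the strand of the gene, with the matches in capitals, for Cxcl2 (chr5:90903791-90903860, plus strand), Cxcl3 (chr5:90785998-90786067, plus strand) and Il6 (chr5:30013040-30013109, plus strand).
Cxcl2: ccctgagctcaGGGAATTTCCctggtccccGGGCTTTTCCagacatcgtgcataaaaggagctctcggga
Cxcl3: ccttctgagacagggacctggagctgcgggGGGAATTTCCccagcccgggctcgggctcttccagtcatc
Il6: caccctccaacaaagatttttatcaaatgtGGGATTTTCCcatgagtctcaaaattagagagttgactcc
The matches begin at −78 in Cxcl2, −73 in Cxcl3 and −44 in Il6, counted from the RefSeq start, and Cxcl2 holds another at −97. A match is a description of letters, and no binding was measured here.

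The shorter AP-1 form TGANTCA was found in 8 of 42 genes above PBS with both (19.0%), 4 of 27 below (14.8%), 7 of 32 with LPS above and IL-4 below (21.9%), none of the 5 and 7.17% of all genes. The STAT form TTCNNNGAA was found in 9.52%, 11.1%, 9.38% and 0.00% of the classes in the same order and in 7.81% of all genes. The form with 4 bases between the arms, TTCNNNNGAA, which STAT6 prefers, was found in 9.52%, 0.00%, 6.25% and 40.0% (2 of 5, Lair1 and Caps2) and in 6.25% of all genes. Its matches overlapped those of the interferon-stimulated response element in 2 promoters, and no other motifs overlapped in these genes.

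Genes of the alternative activation list made up 6 of the 55 genes above PBS with both, out of 39 measured, where all named genes numbered 18786. The list had a median difference of 0.08 with LPS and 0.85 with IL-4. It was chosen with earlier results of these data known, so this IL-4 median may partly reflect the choice. Being on the list does not make a gene specific to IL-4. Olr1 and Gpr84 differed from PBS by 4.06 and 3.33 with LPS and by 2.87 and 2.51 with IL-4. Olr1, the receptor for oxidized LDL, had the largest shared difference: it was at 5.93, 6.07 and 6.49 with PBS, 10.17, 10.14 and 10.36 with LPS and 8.89, 9.06 and 9.14 with IL-4, or 16.7-fold and 7.29-fold over PBS. Gpr84, a receptor for medium-chain fatty acids, was at 8.11, 8.34 and 8.66 with PBS, 11.51, 11.50 and 12.08 with LPS and 10.80, 10.91 and 10.93 with IL-4. Neither gene had a stimulated array near the PBS arrays. Tgm2, a transglutaminase and a marker of IL-4-treated macrophages, differed from PBS by 2.27 with LPS and 1.38 with IL-4. Slc7a2, which imports arginine, differed by 1.78 and 1.10, and Myc, a transcription factor of growth, by 1.09 and 1.08.

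Inhibitors of signaling were also among the shared genes, with 5 of 48 measured members, against 55 of all 18786 named genes. Cish, a SOCS family inhibitor of STAT5 signaling, was at 7.49, 7.38 and 6.18 with PBS, 9.82, 9.79 and 8.90 with LPS and 9.51, 9.36 and 9.44 with IL-4. Replicate 3 was the lowest array of both PBS and LPS for Cish, and all stimulated arrays lay above all PBS arrays. Tnip3, an inhibitor of NF-κB signaling, was at 6.68, 6.92 and 7.61 with PBS, 10.49, 10.36 and 10.69 with LPS and 9.62, 9.57 and 9.60 with IL-4. Socs1, an inhibitor of JAK kinases, differed from PBS by 2.81 with LPS and 1.21 with IL-4. Dusp4, a phosphatase of MAP kinases, differed by 1.62 and 1.17, and Nfkbie, the inhibitor IκBε, by 2.55 and 0.84. The list had median differences of 1.16 and 0.16.

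Members of the cytokine, enzyme, receptor and protease lists were in the class as well. Il1b, interleukin 1β, was at 6.92, 7.12 and 6.98 with PBS, 12.61, 12.66 and 12.72 with LPS and 8.17, 8.39 and 8.13 with IL-4. Il6 was at 3.55, 3.71 and 3.31 with PBS, 12.23, 12.37 and 12.17 with LPS and 4.25, 4.34 and 4.42 with IL-4, or 424-fold and 1.76-fold over PBS. Il6 thus combined the largest LPS difference of these genes with the smallest IL-4 difference of its class (0.81), and it left the class when the array medians were subtracted, with group medians, at a limit of 1.0, and without PBS replicate 3, IL-4 replicate 3 or replicate 3 of both PBS and LPS. The PBS and IL-4 arrays of Il6 lay near the low end of the table, whose lowest value was 2.05. Its PBS mean stood at percentile 4.79 of all rows, so the 1.76-fold IL-4 value is a small difference between low signals. Hbegf, a growth factor of the EGF family, and Edn1, the precursor of endothelin 1, were the other 2 of the 46 measured cytokine and growth factor genes in the class, with IL-4 differences of 0.87 and 1.21.
From the list of enzymes and transporters of arginine, eicosanoids, purines and metabolites came Ptgs2, the inducible cyclooxygenase, at 5.63 with LPS and 1.62 with IL-4, Ch25h, which makes 25-hydroxycholesterol, at 3.91 and 1.28, the transporter gene Slc7a2, given above, and Acod1, which makes itaconate, at 4.06 and 0.85. From the lists of costimulation genes and of pattern, Fc and lectin receptors came Cd40 (5.12 and 1.06), Cd83 (1.31 and 0.94), Trem1 (3.29 and 1.11) and the lectin receptor gene Clec4a1 (1.79 and 0.92), beside Olr1. The list of proteases, inhibitors and matrix genes gave Serpinb2 (5.79 and 1.15), an inhibitor of plasminogen activators, Timp1 (2.90 and 1.15), an inhibitor of metalloproteases, the collagenase gene Mmp13 (4.13 and 0.85) and F10 (2.62 and 1.34), the gene of coagulation factor X. From the transcription factor list came, besides Myc, Nfil3 (1.43 and 1.10) and Hivep3 (2.65 and 1.07).
Genes outside the lists with large shared differences were Cst7, the protease inhibitor cystatin F, at 1.94 with LPS and 1.80 with IL-4, and Tarm1, an activating receptor of myeloid cells, at 1.65 and 1.89. Cst7 was at 7.37, 7.50 and 8.76 with PBS, 9.77, 9.75 and 9.94 with LPS and 9.46, 9.78 and 9.79 with IL-4. Tarm1 was at 6.67, 6.29 and 6.36 with PBS, 8.15, 8.17 and 7.93 with LPS and 8.20, 8.45 and 8.34 with IL-4, and was 1 of 4 genes of the class with the larger difference on the IL-4 side.

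**Figure D2:**
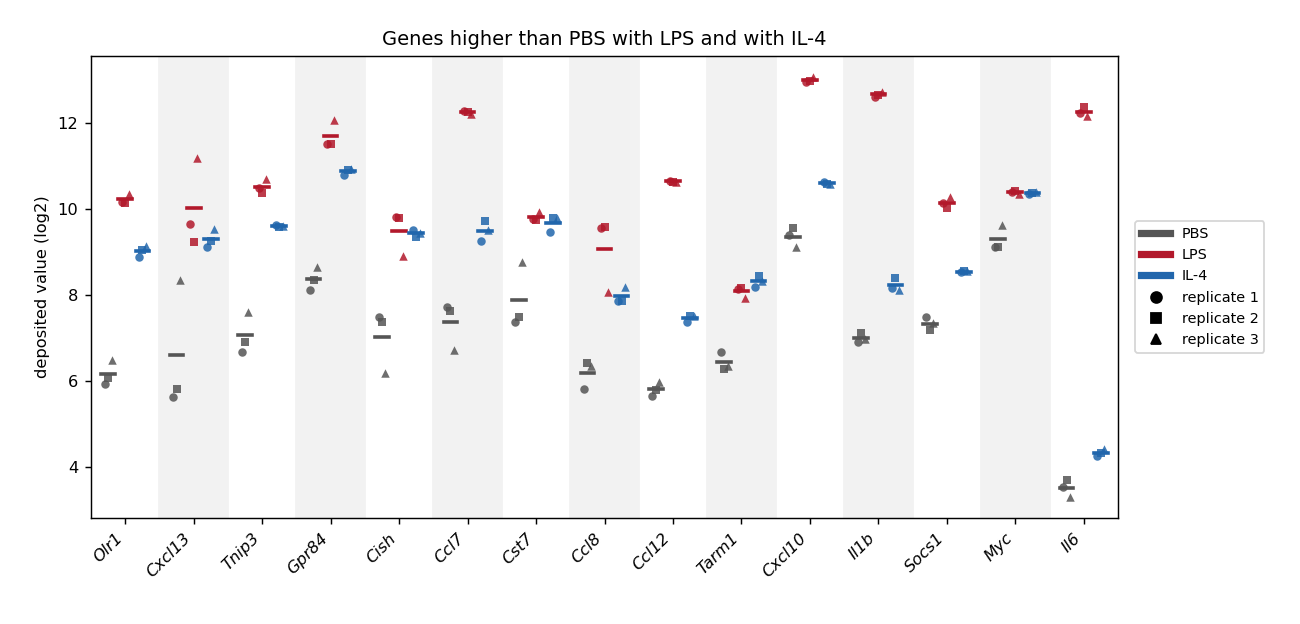
Deposited log2 values of 15 genes above PBS with both stimuli on each of the 9 arrays, with colors for the condition, marker shapes for the replicate number and bars for the mean of 3 arrays. For the 10 leading genes (left) all IL-4 arrays lie above all PBS arrays. For Il6 at the far right the LPS arrays lie above 12 and the IL-4 arrays between 4.25 and 4.42.

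In 52 of these 55 genes all 6 stimulated arrays lay above all 3 PBS arrays, as they did in 5.08% of all rows, but the rule that chose the genes used this contrast. The exceptions were Clec4a1, Cd72 and Saa3, an acute phase gene. Saa3 was at 9.35, 9.77 and 11.79 with PBS, 12.50, 12.50 and 12.66 with LPS and 10.61, 11.52 and 11.43 with IL-4, so that PBS replicate 3 lay above all IL-4 arrays. Just inside the limit were Aqp9 (0.85 with LPS, 1.16 with IL-4), Nfkbie (2.55 and 0.84) and Il6 (8.73 and 0.81), and just outside it Nupr1 (1.87 and 0.80), Pde4b (2.54 and 0.79) and Ctps (1.26 and 0.79).

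Fewer of the genes below PBS with both stimuli belong to the pathway lists, 8 of 38 against 37 of the 55 above PBS. The lists were chosen with earlier results of these data known, and the share of all named genes in them was not counted. This contrast therefore describes the lists as much as the genes. Cd28, a costimulatory receptor best known from T cells, had the largest shared difference. It was at 8.95, 8.73 and 7.18 with PBS, 6.46, 6.40 and 5.06 with LPS and 6.18, 6.34 and 6.24 with IL-4, and PBS was 4.97-fold over LPS and 4.09-fold over IL-4. Slc40a1, the iron exporter ferroportin, was at 9.42, 9.56 and 8.22 with PBS, 7.54, 7.56 and 6.18 with LPS and 7.54, 7.31 and 7.42 with IL-4. In both genes replicate 3 was the lowest array of PBS and of LPS, and all PBS arrays lay above all stimulated ones.

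Enzymes that make or degrade prostaglandins and purines were among them. Hpgd, which inactivates prostaglandins, was at 9.92, 10.06 and 10.15 with PBS, 7.79, 7.75 and 8.43 with LPS and 8.53, 8.34 and 8.52 with IL-4. Hpgds, which makes prostaglandin D2, was at 10.67, 10.67 and 10.27 with PBS, 9.54, 9.53 and 9.06 with LPS and 9.26, 9.28 and 9.32 with IL-4. Ada, adenosine deaminase, was at 9.65, 9.77 and 9.16 with PBS, 8.67, 8.60 and 7.83 with LPS and 7.82, 7.99 and 7.86 with IL-4. The 3 genes had no overlap between PBS and stimulated arrays. Hpgds and Ada were 2 of 40 measured enzyme genes, a list of which 4 were in the class above PBS, among them Ptgs2.

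The receptor lists held Cxcr4, Gpr34, Gpr162 and Cd300a, beside receptor genes of the class outside the lists such as Cd28 and Cd93. Cxcr4, the receptor for CXCL12, was at 10.32, 10.40 and 10.23 with PBS, 7.84, 7.74 and 7.63 with LPS and 9.51, 9.51 and 9.49 with IL-4, and was the only one of 50 measured cytokine and chemokine receptor genes in the class. Gpr34, a lysophosphatidylserine receptor and 1 of 18 measured homeostatic microglia genes, was at 4.34, 4.58 and 6.14 with PBS, 3.62, 3.49 and 3.55 with LPS and 3.53, 3.65 and 3.71 with IL-4. Its PBS replicate 3 was far above the other PBS arrays, and its stimulated arrays lay near the low end of the table, whose lowest value was 2.05. The homeostatic list as a whole had median differences of −0.71 with LPS and −0.12 with IL-4, so Gpr34 does not stand for the list. Cd300a, an inhibitory receptor, differed from PBS by −2.15 with LPS and −0.99 with IL-4, and Gpr162, an orphan receptor, by −0.92 and −0.91.
Bhlhe41, a transcription factor of tissue macrophages, differed by −1.01 and −1.30, and Fabp5, a fatty acid binding protein, by −1.10 and −1.30. Other leading genes were Tmem154 (−2.48 and −1.70), Gm14461 (−1.90 and −1.56), Lrrc14b (−1.53 and −1.90), Klhl6 (−1.61 and −1.49), which encodes a substrate adaptor of a ubiquitin ligase, and Rnf144b (−2.11 and −1.21), which encodes a ubiquitin ligase.

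**Figure D3:**
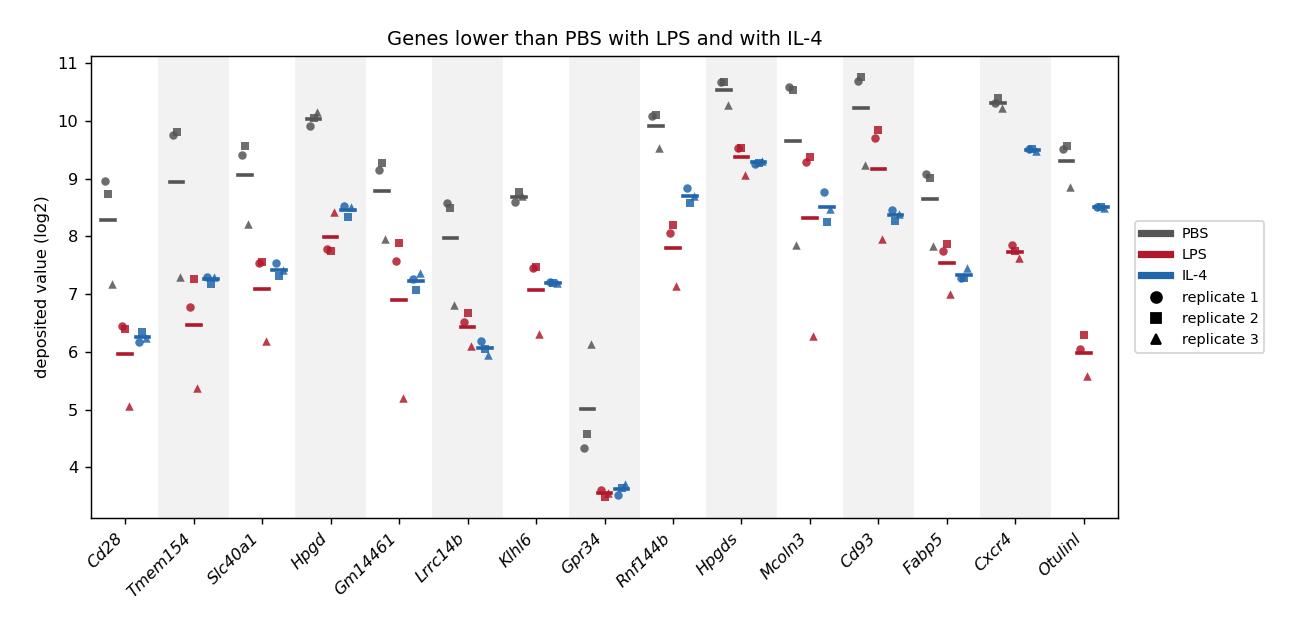
Deposited log2 values of 15 genes below PBS with both stimuli on each of the 9 arrays, with colors for the condition, marker shapes for the replicate number and bars for the mean of 3 arrays. Replicate 3 (triangles) of PBS and of LPS lies below replicates 1 and 2 in most of these genes, as in Mcoln3 and Cd93, while the IL-4 replicates lie close together.

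The PBS arrays overlapped the stimulated arrays in 8 of the 38 genes and did not in 30, against 4.40% of all rows in which all stimulated arrays lay below all PBS arrays. The rule that chose the genes used this contrast, so the excess over all rows restates it. Replicate 3 was below replicates 1 and 2 in both PBS and LPS for 32 of the 38 genes (84.2%), against 33.0% of all rows and 23 of the 55 genes above PBS (41.8%). The 3 PBS arrays spanned 0.8 or more in 15 of the 38 genes (39.5%), in 13 of the 55 genes above PBS (23.6%) and in 4.29% of all rows. Mcoln3, a lysosomal cation channel, showed this most plainly, at 10.59, 10.53 and 7.85 with PBS, 9.28, 9.37 and 6.28 with LPS and 8.78, 8.26 and 8.48 with IL-4. Cd93, a receptor of myeloid and endothelial cells, was at 10.69, 10.76 and 9.24 with PBS, 9.70, 9.84 and 7.96 with LPS and 8.46, 8.26 and 8.38 with IL-4. In both genes each LPS array lay below the PBS array of the same number, and replicate 3 differed from the others by more than the stimuli did for Mcoln3. The size of the class depended on this array: it held 100 genes, among them all 38, without PBS replicate 3, 28 without PBS replicate 2, and 74 without replicate 3 of both PBS and LPS. Motile cilia and oligodendrocyte genes were high on the same arrays (8.93 and 8.80 on PBS replicate 3), and their part in these differences was not tested. Just inside the limit were Arhgap15 (−0.98 with LPS, −0.81 with IL-4), Rasgef1a (−1.19 and −0.81) and Otulinl (−3.34 and −0.80), and just outside it Cdo1 (−0.79 and −1.07), Rhov (−0.79 and −1.0) and Msrb1 (−0.78 and −0.85).

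The 41 genes above PBS with LPS and below it with IL-4 were mostly interferon-stimulated genes. Of the 77 measured genes of that list, 27 were in this class, 2 (Cxcl10 and Cxcl11) in the class above PBS with both and none in the others, and the list had median differences of 2.45 with LPS and −0.65 with IL-4. Of all 18786 named genes, 41 were in this class. No gene of the chemokine or alternative activation lists was in the class. In all 41 genes the 3 LPS arrays lay above and the 3 IL-4 arrays below all PBS arrays, as in 3.16% of all rows, which again restates the rule.

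Sensors, effectors and regulators of the antiviral response were in the class. Ifi44l, an interferon-induced gene, was at 8.42, 8.45 and 7.89 with PBS, 10.64, 10.59 and 9.32 with LPS and 5.94, 5.83 and 5.85 with IL-4, or 3.81-fold over PBS with LPS and 5.21-fold under it with IL-4. Oas2, which makes the activator of RNase L, was at 9.16, 9.06 and 8.99 with PBS, 10.84, 10.82 and 10.63 with LPS and 7.48, 7.20 and 6.94 with IL-4. Slfn5, of the schlafen family, was at 9.87, 9.86 and 9.70 with PBS, 11.93, 11.91 and 11.73 with LPS and 8.03, 7.83 and 7.81 with IL-4. These 3 genes lay about as far below PBS with IL-4 as above it with LPS. Rsad2, the antiviral protein viperin, had replicates close together, at 8.96, 8.96 and 8.95 with PBS, 12.49, 12.55 and 12.55 with LPS and 7.68, 7.77 and 7.59 with IL-4. Mx1, a dynamin-like antiviral GTPase, had the largest LPS difference of the class (4.48) with an IL-4 difference of −0.95. Irf7, a transcription factor that amplifies type I interferon, was at 8.89, 8.87 and 9.84 with PBS, 11.59, 11.68 and 11.77 with LPS and 8.01, 8.50 and 7.94 with IL-4. Usp18, which restrains interferon receptor signaling, differed by 1.89 and −0.99, and Dhx58, an RNA sensor, by 2.09 and −1.11.
The other leading genes were Ifit3b (3.61 and −1.56), Trim30d (2.71 and −1.51), Ifi209 (3.76 and −1.44), Ms4a4c (3.72 and −1.38), Ly6c1 (1.37 and −1.42), Ccrl2 (2.56 and −1.37) and Phf11d (2.68 and −1.36). Ccrl2, a receptor that binds chemerin without signaling, was at 9.93, 9.94 and 9.37 with PBS, 12.36, 12.36 and 12.19 with LPS and 8.34, 8.34 and 8.45 with IL-4. Il15, a cytokine that sustains NK and memory T cells, was at 8.10, 8.15 and 7.06 with PBS, 10.96, 11.08 and 10.61 with LPS and 6.86, 6.51 and 6.72 with IL-4, with PBS replicate 3 nearest to the IL-4 arrays. P2ry14, a receptor for UDP-glucose, differed by 2.05 and −0.82.

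Many of these genes come from families whose members lie side by side, and 22 of the 41 had another gene of the class within 200 kb, in 9 groups. No count over all named genes was made beside this one. The largest was Oas2, Oas3, Oas1g and Oas1a on chromosome 5, and Ifit1, Ifit3 and Ifit3b on chromosome 19 and Slfn1, Slfn5 and Slfn8 on chromosome 11 formed groups of 3. Ifit3 and Ifit3b, Oas1a and Oas1g, Trim30a and Trim30d, Phf11a and Phf11d, and Ifi204 and Ifi209 are close copies, so their values may share signal and count as less than separate observations. Just inside the limit were Niban1 (1.77 with LPS, −0.84 with IL-4), P2ry14 and Gm12250 (4.15 and −0.81), and just outside it Tent5a (1.44 and −0.80), Tmem140 (0.78 and −1.46) and Clec4d (0.87 and −0.77).

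**Figure D4:**
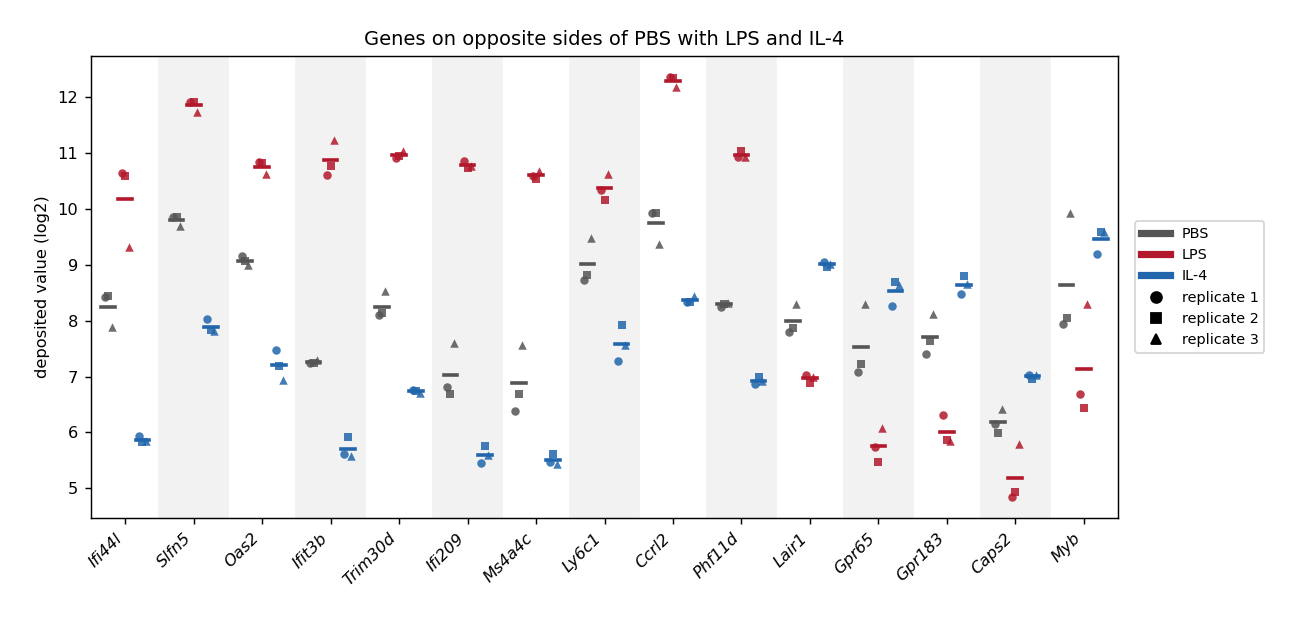
Deposited log2 values on each of the 9 arrays for 10 genes above PBS with LPS and below it with IL-4 (left) and the 5 genes of the reverse kind (right), with colors for the condition, marker shapes for the replicate number and bars for the mean of 3 arrays. In the first 10 genes the LPS, PBS and IL-4 arrays form separate levels in that order from the top, and PBS replicate 3 lies within the IL-4 arrays in Gpr65 and above them in Myb.

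The interferon-stimulated response element, searched as GAAANNGAAA on both strands, was found before the start of 14 of the 32 genes of this class with a promoter (43.8%), against 5 of 42 genes above PBS with both (11.9%), 1 of 27 below (3.70%), none of 5 in the reverse class and 3.46% of all genes. The 14 include neighboring copies such as Ifit3 and Ifit3b, which are not independent. The 5 genes above PBS with both that carry the same letters were Cxcl10, Socs1, Edn1, Mmp13 and Saa3. For Cxcl10, Socs1 and 6 of the 14 genes, the stretches around the match nearest the start are shown. They lie at chr19:34640774-34640843 (Ifit1, plus strand), chr19:34583377-34583446 (Ifit3, plus strand), chr12:26456533-26456602 (Rsad2, minus strand), chr5:120777695-120777764 (Oas3, minus strand), chr7:104465194-104465259 (Trim30a, minus strand), chr11:83020819-83020888 (Slfn8, minus strand), chr5:92349063-92349132 (Cxcl10, minus strand) and chr16:10785574-10785643 (Socs1, minus strand). Matches are in capitals, and those on the opposite strand read as the reverse complement.
Ifit1: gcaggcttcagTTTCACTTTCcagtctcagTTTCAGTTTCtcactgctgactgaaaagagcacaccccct
Ifit3: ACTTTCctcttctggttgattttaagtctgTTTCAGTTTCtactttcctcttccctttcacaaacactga
Rsad2: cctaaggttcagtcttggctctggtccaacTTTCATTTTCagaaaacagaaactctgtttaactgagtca
Oas3: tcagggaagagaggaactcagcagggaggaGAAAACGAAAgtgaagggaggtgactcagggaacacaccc
Trim30a: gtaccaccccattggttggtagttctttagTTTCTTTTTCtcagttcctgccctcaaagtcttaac
Slfn8: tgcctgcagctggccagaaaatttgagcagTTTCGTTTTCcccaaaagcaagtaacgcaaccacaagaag
Cxcl10: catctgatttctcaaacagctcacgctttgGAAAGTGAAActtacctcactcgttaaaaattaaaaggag
Socs1: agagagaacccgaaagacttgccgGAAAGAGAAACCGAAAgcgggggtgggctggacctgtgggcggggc
The match lies at −85 in Ifit1, −122 in Ifit3, −120 in Rsad2, −75 in Oas3, −36 in Trim30a, −48 in Slfn8, −213 in Cxcl10 and −77 in Socs1. Ifit1, Ifit3 and Slfn8 hold another match further from the start, of which the stretch of Ifit3 shows the end, and those of Socs1 overlap each other. Ifit1 was at 9.22, 9.26 and 9.28 with PBS, 12.15, 12.30 and 12.27 with LPS and 8.07, 7.92 and 7.89 with IL-4, and Socs1, with the same letters, was at 7.49, 7.18 and 7.34, 10.14, 10.02 and 10.27 and 8.53, 8.56 and 8.56.

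Only 5 genes lay below PBS with LPS and above it with IL-4, and 2 of them encode receptors of lipids or protons. Lair1, an inhibitory collagen receptor, was at 7.81, 7.87 and 8.30 with PBS, 7.03, 6.89 and 7.00 with LPS and 9.05, 8.96 and 9.02 with IL-4. Gpr65, a proton-sensing receptor, was at 7.09, 7.23 and 8.29 with PBS, 5.73, 5.47 and 6.08 with LPS and 8.26, 8.69 and 8.64 with IL-4. Gpr183, the receptor for 7α,25-dihydroxycholesterol, whose synthesis begins with Ch25h, was at 7.40, 7.64 and 8.11 with PBS, 6.31, 5.86 and 5.85 with LPS and 8.48, 8.80 and 8.66 with IL-4. Lair1 and Gpr183 had no overlap between conditions, and PBS replicate 3 of Gpr65 lay within the IL-4 range. Myb, a transcription factor of blood progenitors, was at 7.94, 8.06 and 9.94 with PBS, 6.70, 6.43 and 8.31 with LPS and 9.20, 9.59 and 9.59 with IL-4, so that PBS replicate 3 lay above all IL-4 arrays. Caps2, a calcium-binding protein gene, was at 6.16, 5.99 and 6.42 with PBS, 4.84, 4.93 and 5.80 with LPS and 7.04, 6.96 and 7.03 with IL-4.
The conditions were separate in this order in 3 of the 5 genes, against 4.96% of all rows, which again restates the rule. PBS replicate 3 was the highest PBS array in all 5. Motile cilia genes, with median differences of −0.30 with LPS and 0.56 with IL-4, moved on the same arrays, and their part was not tested. The class held 3 genes without PBS replicate 1, 10 without PBS replicate 3, 25 without LPS replicate 3, 9 without IL-4 replicate 1 and 27 without replicate 3 of both PBS and LPS. Just outside the limit were 1700094D03Rik (−0.81 with LPS, 0.78 with IL-4), Lrriq1 (−0.91 and 0.78) and Bbof1 (−0.90 and 0.76), while Gpr183 (−1.71 and 0.93), Caps2 (−1.0 and 0.82) and Myb (−1.50 and 0.82) were just inside.

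Whether the 2 stimuli differed from each other in the genes on the same side of PBS is not fixed by the rule. It was tested over all rows (limma, 3 arrays per condition, Benjamini-Hochberg adjustment over 21212 rows). The rule did use the same LPS and IL-4 means, however. With LPS, 5.51% of all rows lay 0.8 or more above PBS and 4.51% below, against 0.768% and 0.646% with IL-4. The direction of the calls thus partly follows from the selection. Of all rows, 21.0% were called higher and 25.9% lower with LPS than with IL-4, which is not a background matched to the selection. Of the 55 genes above PBS with both, 41 were called higher with LPS, by 0.33 to 7.92, and 14 were not called. None was called higher with IL-4 (limma, also 0 at an unadjusted p under 0.05, and 0 by either count with Student's t-test). The largest differences were those of Il6, at 7.92 ± 0.10 (SE, adjusted p = 1.7e-09), Serpinb2, at 4.64 ± 0.13 (adjusted p = 3.91e-08), Il1b, at 4.44 ± 0.08 (adjusted p = 6.23e-09), Cxcl2, at 4.24 ± 0.16 (adjusted p = 1.99e-07), and Cd40, at 4.07 ± 0.09 (adjusted p = 1.33e-08). Of the 6 genes of the alternative activation list in the class, 4 were called higher with LPS. They were Olr1 at 1.19 ± 0.14 (limma adjusted p = 0.000189), Tgm2 at 0.88 ± 0.11 (adjusted p = 0.000309), Gpr84 at 0.82 ± 0.18 (adjusted p = 0.00589) and Slc7a2 at 0.68 ± 0.15 (adjusted p = 0.0053). The other 2, Myc and Cish, were not called. A gene had to lie above PBS with LPS to be in the class, so these 6 do not stand for the list. Its median differences from PBS were 0.08 with LPS and 0.85 with IL-4.

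Some genes above PBS with both had levels that were not told apart between the stimuli. Myc was at 10.39, 10.42 and 10.35 with LPS and 10.35, 10.38 and 10.40 with IL-4, a difference of 0.01 with a 95% interval from −0.27 to 0.30 (limma adjusted p = 0.936). Cish differed by 0.07 with an interval from −0.76 to 0.89 (adjusted p = 0.889), Cst7 by 0.14 from −0.59 to 0.88, and Il4i1, an amino acid oxidase induced by IL-4, by −0.15 from −0.61 to 0.32. The interval of Cxcl13, from −0.97 to 2.41 about a difference of 0.72, was the widest among the 14 and leaves room for either stimulus to be higher. Tarm1 and Aqp9 had the lowest values, at −0.25 (−0.51 to 0.02) and −0.31 (−0.69 to 0.08). The fit pooled the spread of all 9 arrays, so these intervals also carry that of the PBS arrays. For Cxcl13 the SD was 1.52 with PBS, 1.03 with LPS and 0.21 with IL-4. Saa3, Clec4a1, Cd72 and Tarm1 were not called although their LPS and IL-4 arrays did not overlap. With only the 6 stimulated arrays Saa3, Clec4a1 and Cd72 were called (limma adjusted p = 0.00405, 0.0337 and 0.0415), whereas Car4, Ccl8 and Hpgd lost their calls. A p above the threshold does not show that the levels are equal, and Cish was 1 of 24 further genes of both classes called without replicate 3 of both PBS and LPS.

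Of the 38 genes below PBS with both, 12 were called lower with LPS than with IL-4, by 0.39 to 2.53 in size, and 26 were not called. The largest differences were those of Otulinl, a relative of the deubiquitinase OTULIN, at −2.53 ± 0.22 (SE, limma adjusted p = 3.15e-05), Cxcr4, at −1.76 ± 0.07 (adjusted p = 2.45e-07), Tmem86a, an enzyme of plasmalogen breakdown, at −1.54 ± 0.07 (adjusted p = 6.12e-07), Cd300a, at −1.16 ± 0.19 (adjusted p = 0.00111), and Rnf144b, at −0.90 ± 0.27 (adjusted p = 0.0256). For Cxcr4 the IL-4 arrays thus lay between those of PBS and LPS. None was called lower with IL-4 (limma, also 0 at an unadjusted p under 0.05, and 0 by either count with Student's t-test), but this count rose to 12 without replicate 3 of both PBS and LPS, 6 with array weights and 4 without LPS replicate 3. Among the genes then called were Cd93, whose difference of 0.80 (adjusted p = 0.249) became 1.40 without LPS replicate 3 (adjusted p = 0.0239), and Ada, whose difference of 0.48 (adjusted p = 0.12) became 0.75 (adjusted p = 0.00714). Hpgds differed by 0.09 with an interval from −0.25 to 0.43, and Gpr162 by −0.0045 from −0.27 to 0.27.
Of the 53 calls in both classes, 13 were lost under at least 1 alternative and none changed direction. They were Ccl8, Car4, F10, Il1f9, Timd4, Eid3, Glrx, Cd83, Nfil3, Hpgd, Rnf144b, Dkk2 and Slc37a2. The call of Hpgd (−0.47, adjusted p = 0.0479) was lost without any one of 8 arrays, LPS replicate 3 being the exception, and that of Ccl8 (1.09, adjusted p = 0.0419) without PBS replicate 2, LPS replicate 1 or 2 or any IL-4 array. The call of Rnf144b was lost without any one of the IL-4 arrays.

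**Figure D5:**
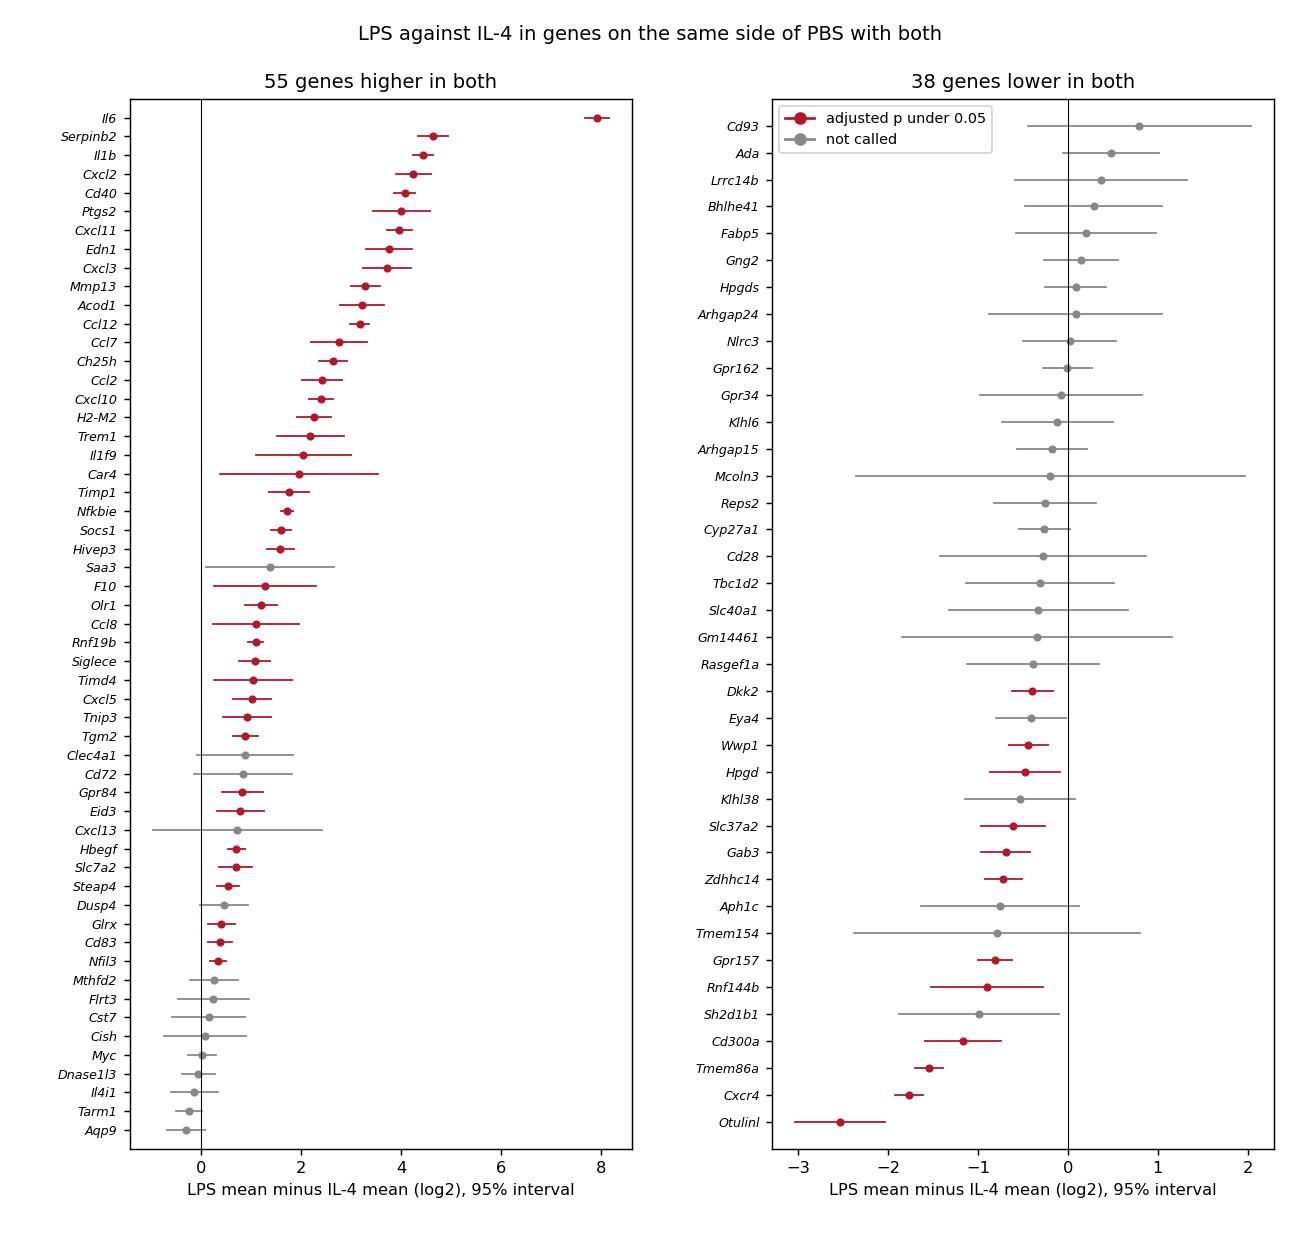
LPS mean minus IL-4 mean (log2) with 95% intervals from limma for the 55 genes above PBS with both stimuli (left) and the 38 below (right), ordered by the difference and colored where the adjusted p is under 0.05. The called differences are all positive on the left, up to 7.92 for Il6, and all negative on the right, down to −2.53 for Otulinl.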

How the data were processed

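Primary mouse microglia given PBS, LPS or IL-4 were measured on Affymetrix Mouse Exon 1.0 ST arrays, 3 per condition. The deposited log2 values were made by the authors with RMA and the affy package, per the labels, with versions not given in the sources used here. RMA corrects background, equalizes the distributions of the arrays and summarizes probes per gene, so a shift of all genes would not be seen. Array medians still differed by condition: they lay between 7.20 and 7.26 with LPS, 7.32 and 7.37 with PBS, and 7.37 and 7.39 with IL-4. This offset lies along the tested contrast of LPS with IL-4, and counts with array medians subtracted are given below. The number of arrays limits the precision.

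Conditions came from the labels. Of 21212 rows, 18786 had 1 symbol, 6 several and 2420 none, and 43 were named through another identifier. The genes, the limit of 0.8 and the gene lists (15 of pathways and 9 of cell types) were chosen with earlier results of these data known. Genes were named by a rule: per class, the 10 with the largest value of the smaller difference, 3 on each side of the limit, up to 4 per list, and in each class on the same side of PBS the 5 largest called differences between LPS and IL-4 in each direction. Others, such as Saa3, Mcoln3, Cd93, Rsad2, Irf7, Mx1, Ifit1, Usp18, Dhx58, Myc, Cst7, Il4i1 and the other genes named outside the rule, were chosen after their values were seen.

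LPS and IL-4 arrays were compared in 1 linear model fitted to all 9 arrays without a block (limma 3.58.1, eBayes, R 4.3.3, residual df 6, prior df 2.38), called at an adjusted p under 0.05. The fit was tested on simulated data. Alternatives were other limits, quantile normalization, subtracted array medians, a filter on dim rows, group medians, the replicate number as a block, only the 6 stimulated arrays, trend, robust eBayes, array weights (statmod 1.5.0), the methods' t-test, each array left out and replicate 3 of PBS and LPS left out. Promoters were RefSeq's for GRCm38.p6, from 250 bases before the start. Figures were drawn with matplotlib 3.10.9, and tables were made with pandas 2.3.3 and numpy 2.4.6 under Python 3.11.15.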

Additional observations from a re-analysis of the deposited data

How the results depend on the processing

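The limit and the arrays set the size of the classes more than the scaling did. The counts of genes above PBS with both, below with both, above with LPS and below with IL-4, and the reverse were 55, 38, 41 and 5, against 39, 19, 30 and 1 at a limit of 1.0 and 108, 100, 79 and 30 at a limit of 0.6. With quantile normalization they were 59, 44, 44 and 4, with array medians subtracted 56, 38, 47 and 3, without the dimmest rows 54, 35, 40 and 4, with group medians 61, 69, 49 and 17, and without replicate 3 of both PBS and LPS 62, 74, 49 and 27. With 1 array left out they lay between 53 and 78, 28 and 100, 40 and 47, and 3 and 25; the highest were without PBS replicate 3 except for the last, which was without LPS replicate 3. The cause was not tested.

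Genes above PBS with both and called higher with LPS than with IL-4 numbered 35 to 44 with 1 array left out, and those below PBS and called lower with LPS 10 to 15. None of the former was called higher with IL-4 in any of these settings. Genes below PBS and called lower with IL-4 numbered 0 to 4 with 1 array left out, 1 with array medians subtracted, 6 with array weights and 12 without replicate 3 of both PBS and LPS. With the replicate number as a block this count was 1 (Ada), the call of Ccl8 was lost and 7 were gained. Arrays of the same number deviated together from the means of LPS and of PBS (r = 0.578, 0.651 and 0.80 across genes), but so did LPS replicate 1 with PBS replicate 2 (0.542) and LPS replicate 2 with PBS replicate 1 (0.605), so that only number 3 was told apart. They did not do so throughout for LPS and IL-4 (0.289, −0.228 and 0.0593), so the numbers were not taken to pair LPS and IL-4. Of the 53 calls, 13 were lost with the t-test, 3 with only 6 arrays, 4 with quantile normalization, 2 with medians subtracted, up to 8 with 1 array left out and none with trend, robust eBayes, array weights, the dim filter or 7 arrays.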
